A study of Mus musculus with 4 samples.

Results

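A set of 9 genes of the mouse CD4+ T cell table were examined: Scrt1, Gipr, Ptpn5, Selp, Cd93, Lilrb4a, Lilr4b, Serpinf1 and Serpinb5. These 9 of 34745 genes in the table were chosen by their measured levels, because their CPM was far higher in the Th17 library than in the Treg library, and most of them are known mainly from tissues other than T cells. The Th17 over Treg values therefore only describe how the genes were chosen. The proposed name for the set was unexpected genes restricted to Th17 over Treg. All 9 were higher in Th17 than in Treg, as they were chosen to be. The word restricted did not hold for most of them: Gipr, Lilrb4a, Lilr4b and Serpinf1 were also clearly read in Treg. Ptpn5, Selp and Cd93 had 30, 43 and 50 counts there. Outside that contrast, Serpinb5 was highest in Th0, and Cd93, Lilrb4a and Lilr4b were also read well above the floor in the naive library.

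CD4+ T cells were taken from the spleens of C57BL/6 mice of wild type genotype, and 1 RNA library was sequenced for each of 4 groups. The cells called naive went straight from selection to RNA, and the labels name no marker used to select naive cells. Th0 cells had been stimulated for 3 days through CD3 and CD28, and Th17 and Treg cells had been collected after 3 days in their respective differentiation conditions. The cytokines of those conditions, the age and sex of the mice and how many mice each library stands for were not given in those labels. With 1 library per group there is no replicate error, so no p-value was computed, and every interval is a 95% interval for counting error only.

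The total count was between 10256627 and 12414372 per library. Levels are given as CPM, the read count scaled to a library size that was corrected for composition, and 3 counts corresponded to between 0.229 and 0.343 CPM. The lineage genes were read first. Il17a, which encodes the cytokine that Th17 cells are named for, had 90.4 CPM in Th17, 14.7 in Treg, 0 in Th0 and 0.245 in naive. Foxp3, the regulatory T cell transcription factor gene, stood at 51.5 CPM in Treg and 11.3 in Th17, but at 129 in naive and 1.37 in Th0. The 8 Treg defining genes summed to 2750 CPM in Treg and to 3088 CPM in Th17, so their sum did not set the Treg library above the Th17 library. Il2ra alone gave 1287 and 1558 CPM of these sums. Gene by gene, 2 of the 8, Foxp3 and Nrp1, were called lower in Th17 than in Treg and 0 higher, with a median log2 ratio of -0.36. By the size rule given below, 1.24% of 13346 tested genes were called lower in Th17 than in Treg and 1.91% higher. Summed levels of 10 defining T cell genes were between 3623 and 4918 CPM in the 4 libraries. The naive library also held transcripts of other cells: 12 macrophage and monocyte markers summed to 4706 CPM in naive and to between 32.9 and 52.2 CPM in the 3 cultures. B cell markers moved in the same direction as the 9 genes between Th17 and Treg: 8 of 10 were called higher in Th17 and 0 lower, with a median log2 ratio of 1.41. The share called higher over all tested genes was 1.91%. Pax5, a transcription factor gene of B cells, had 255 counts in Th17 and 39 in Treg, and Cd79a, a B cell receptor chain gene, had 185 and 40. Added up, the 10 genes of that list reached 224 CPM in Th17, 105 in Treg, 452 in Th0 and 3741 in naive, none of them was at 0 counts in any library, and their part in the levels of the 9 genes was not tested. In Th0 this sum was above that in Th17. Of the 9 genes, 8 were lower in Th0 than in Th17 and Serpinb5 was higher, and their relation to the sum was not tested. In bulk RNA, fewer cells of a type and less RNA per cell cannot be told apart.

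The 9 genes fall into 5 kinds. Scrt1 encodes a zinc finger repressor of the Snail superfamily, known from neurons. Gipr encodes the receptor for the gut hormone GIP, which signals through cyclic AMP and is known from pancreatic beta cells, and Ptpn5 encodes the phosphatase STEP, which is abundant in the striatum and removes phosphate from MAP kinases and from the kinase Fyn. Selp encodes P-selectin, the adhesion molecule that platelets and endothelium store in granules, and Cd93 encodes a C-type lectin-like glycoprotein of endothelium, myeloid cells and blood cell progenitors. Lilrb4a and Lilr4b encode a pair of immunoglobulin-like receptors known from mast cells, myeloid cells and natural killer cells. Serpinf1 (PEDF) and Serpinb5 (maspin) belong to the serpin superfamily, and both proteins are known as serpins that do not inhibit proteases.

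**Figure D1:**
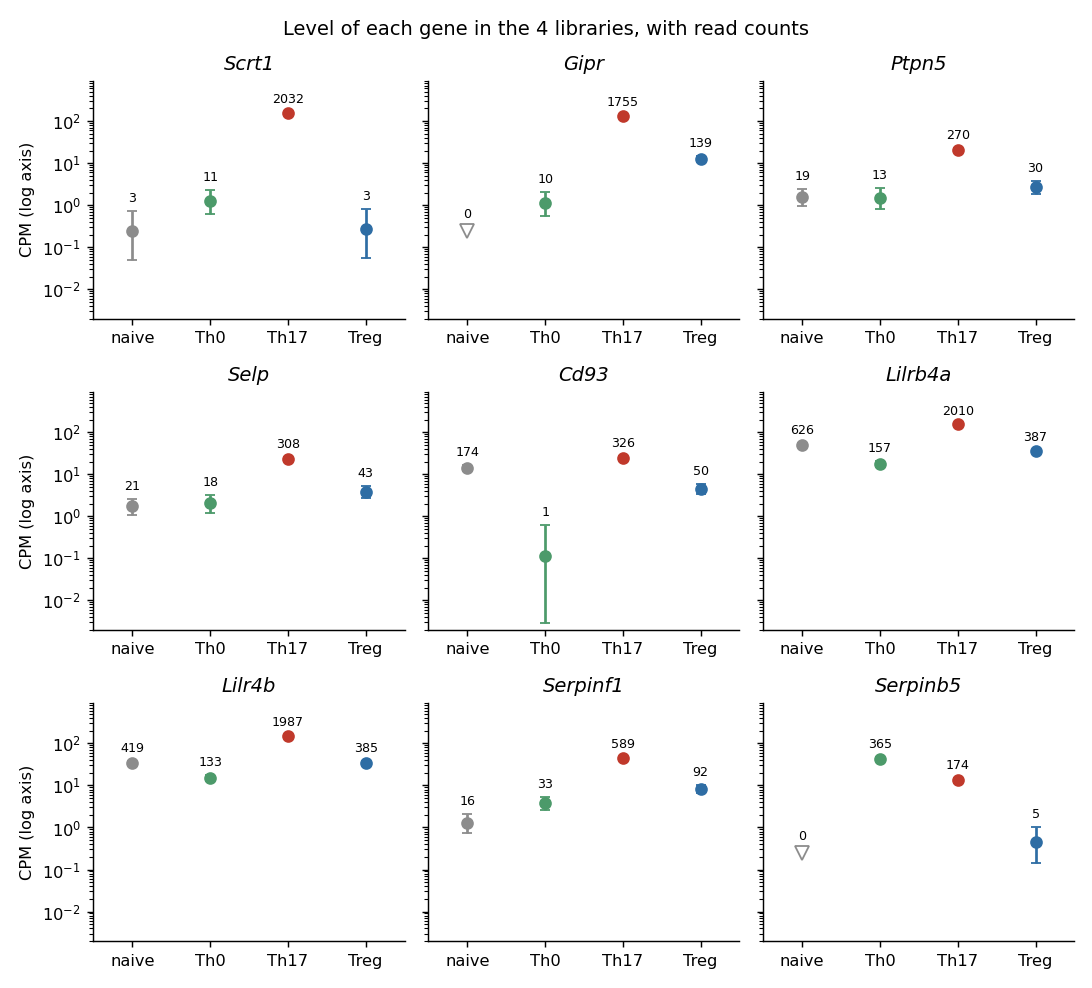
Level of each of the 9 genes in CPM on a log axis, 1 panel per gene and 1 library per group. Points are levels, bars are exact 95% Poisson intervals (counting error only), the number above each point is the read count, and open triangles mark 0 counts, drawn at the level of 3 counts. Th17 is highest in 8 panels, and Th0 in the panel of Serpinb5.

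In the contrast that chose them, 9 of 9 genes met the size rule as higher in Th17. Of 13346 tested genes 1.91% did so and 1.24% were lower, and nothing is read from the count of 9. The rule asked for at least 10 counts in 1 of the 2 libraries, a ratio of at least 2-fold after 1 CPM was added to both levels, and a counting interval of the ratio that excluded 1. By that log2 ratio, Scrt1, Gipr and Serpinb5 ranked 1, 2 and 3 among the tested genes. Ptpn5, Selp, Serpinf1 and Cd93 ranked 6, 11, 12 and 15, and Lilrb4a and Lilr4b ranked 20 and 21. The set was thus taken from the extreme end of this contrast, although the sizes within it differed widely, from 4.36-fold for Lilr4b (3.91 to 4.88) to 572-fold for Scrt1. Between them lay Serpinb5 at 29.4-fold (12.4 to 91.7), Gipr at 10.7-fold (8.97 to 12.8) and Ptpn5 at 7.61-fold (5.21 to 11.5). Selp stood at 6.05-fold (4.39 to 8.53), Cd93 at 5.51-fold (4.08 to 7.58), Serpinf1 at 5.41-fold (4.34 to 6.82) and Lilrb4a at 4.39-fold (3.93 to 4.91).

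Scrt1 (ENSMUSG00000048385, chr15:76516203-76522129, minus strand, GRCm38) had 2032 counts in Th17, 11 in Th0, 3 in Treg and 3 in naive. These are 155 CPM in Th17 (interval 148 to 162), 1.26 in Th0 (0.629 to 2.25), 0.271 in Treg (0.0558 to 0.791) and 0.245 in naive (0.0505 to 0.716). Scrt1 was thus read almost solely in Th17, which held 98.9% of its CPM summed over the 4 libraries. Treg and naive were not separated from each other, with a ratio interval of 0.148 to 8.24, and both stood at the level of 3 counts. Scrt1 was 123-fold higher in Th17 than in Th0 (68.6 to 247) and 572-fold higher than in Treg (196 to 2778), the latter against 3 counts. Its low level in Th0 was above that in Treg by the counting interval (1.23 to 26.0), but the pair did not reach the 2-fold rule after 1 CPM was added (log2 ratio of -0.83 for Treg over Th0).

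Its closest relatives were low or not read. Scrt2 and Snai2 had 0 counts in all 4 libraries, Snai1 had between 0.902 and 1.83 CPM, and Snai3 had 8.03 CPM in Treg and 6.40 in Th17. Of the list of Snail and Scratch relatives and E-box factors, 12 of 14 genes were tested for Th17 over Treg. Only Id2, which encodes an inhibitor of E proteins, was called, at 99.4 against 48.0 CPM (2.07-fold, interval 1.87 to 2.30). The list had a median log2 ratio of 0.22, against -0.001 over all genes tested. Summed levels of 10 neuronal markers were between 4.82 and 6.33 CPM in the 4 libraries, and Nefl and Elavl4 had 0 counts in all of them. Gad1 had 34 counts in Th17, 13 in Treg, 24 in Th0 and 10 in naive. Slc17a7 had 37 in Th17, 23 in Treg, 2 in Th0 and 1 in naive. Tubb3 and Syn1 were lower in Th17 than in Treg, at 7 against 13 and 4 against 8 counts. The part of neuronal markers in the level of Scrt1 was not tested.

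Gipr (ENSMUSG00000030406, chr7:19156061-19166127, minus strand) had 1755 counts in Th17, 139 in Treg, 10 in Th0 and 0 in naive. The levels were 134 CPM in Th17 (128 to 140), 12.5 in Treg (10.5 to 14.8) and 1.14 in Th0 (0.549 to 2.11), and 3 counts, taken as the limit that 0 counts allow, were 0.245 CPM in naive. All 4 libraries were separated in this order by their counting intervals. Unlike Scrt1, Gipr was read in Treg as well, 10.9-fold above Th0 (5.78 to 23.3), while Th17 was 117-fold above Th0 (63.4 to 244). Gipr was at least 546-fold higher in Th17 and at least 51.2-fold higher in Treg than in naive.

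The other incretin receptor and the ligands of both had at most 2 counts in any library. Glp1r had 2 counts in Th17 and 1 in Treg, Gip had 0 counts in all libraries, and Gcg had 1 count in naive. Glp2r and Gcgr had 0 counts throughout, so at this depth they were not detectable. Of 34 listed receptors of the secretin family and genes of the cyclic AMP pathway, 21 were tested for Th17 over Treg and 0 were called in either direction, with a median log2 ratio of 0.06. Vipr1, the receptor for the neuropeptide VIP, had 20.6 CPM in Th17 and 14.0 in Treg against 110 in Th0 and 172 in naive, and Calcrl, a receptor of the calcitonin family, had 15.4 CPM in Th17 and 14.7 in Treg. Dpp4 encodes a protease that cleaves GIP, and its level was 165 CPM in Th17, 103 in Treg, 36.5 in Th0 and 136 in naive. Gnas, the stimulatory G protein alpha subunit through which the receptor signals, had 499 CPM in Th17 and 562 in Treg. Over all tested genes 3.15% were called in either direction, so 0 of 21 is no result about the pathway. The same share applies to the counts of the other lists for Th17 over Treg.

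Ptpn5 (ENSMUSG00000030854, chr7:47077798-47133684, minus strand) had 270 counts in Th17, 30 in Treg, 13 in Th0 and 19 in naive. Its levels were 20.6 CPM in Th17 (18.2 to 23.2), 2.71 in Treg (1.83 to 3.86), 1.49 in Th0 (0.792 to 2.54) and 1.55 in naive (0.934 to 2.42). Th17 alone stood apart, since the ratio intervals between neighbours in the rest of the order included 1 (0.95 to 3.28 for Treg over naive, and 0.489 to 2.30 for naive over Th0). Ptpn5 was 13.8-fold higher in Th17 than in Th0 (7.95 to 26.3) and 13.3-fold higher than in naive (8.33 to 22.4).

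Among its relatives, Ptpn7, the phosphatase of the same kind that is usual in blood cells, had 153 CPM in Th17, 162 in Treg, 33.2 in Th0 and 163 in naive, and Ptprr had 1 count in naive and 0 in the cultures. Of the list of 19 MAP kinases, phosphatases and substrates, 17 were tested for Th17 over Treg and 0 were called (median log2 ratio -0.09). The share over all tested genes was 3.15%. Dusp4, a phosphatase of nuclear MAP kinases, had the largest difference of this list, at 183 CPM in Th17 and 294 in Treg (log2 ratio -0.68).

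Selp (ENSMUSG00000026580, chr1:164115264-164150026, plus strand) had 308 counts in Th17, 43 in Treg, 18 in Th0 and 21 in naive. Its levels were 23.5 CPM in Th17 (20.9 to 26.2), 3.88 in Treg (2.81 to 5.22), 2.06 in Th0 (1.22 to 3.26) and 1.71 in naive (1.06 to 2.62). Th17 was 11.4-fold above Th0 (7.09 to 19.5) and 13.7-fold above naive (8.80 to 22.4), while Th0 and naive were not separated (0.603 to 2.37). The overlapping genes Gm16587 and Gm16548 had at most 1 count, and reads of overlapping genes cannot be told apart with certainty. Selp and Ptpn5 had the most alike patterns of the 36 pairs of members, at a distance of 0.23 on the log2 scale. The 250 bases before the start site of Selp are shown because they hold a closely spaced pair of matches. Capitals mark an AP-1 match directly followed by an E-box match on the opposite strand. Further on, capitals mark the motif AGGTCA, only a part of a ROR element, on the opposite strand (RefSeq, GRCm38.p6, chr1:164115014-164115263, plus strand).
Selp: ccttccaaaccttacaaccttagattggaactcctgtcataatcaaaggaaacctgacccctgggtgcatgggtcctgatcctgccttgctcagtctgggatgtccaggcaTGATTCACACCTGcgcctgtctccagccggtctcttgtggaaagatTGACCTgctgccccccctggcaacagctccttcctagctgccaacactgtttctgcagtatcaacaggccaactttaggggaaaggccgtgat

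Sele, which encodes the selectin of activated endothelium, had at most 5 counts in any library. Selplg, which encodes PSGL-1, the ligand that P-selectin binds, was read at 779 CPM in Th17, 869 in Treg, 352 in Th0 and 515 in naive. Of 19 listed selectins and genes of selectin ligand synthesis, 15 were tested for Th17 over Treg and 0 were called, with a median log2 ratio of 0.02. Among all tested genes 3.15% were called. Fut7, whose enzyme adds the fucose that selectins bind, had 7.70 CPM in Th17, 5.05 in Treg, 0.229 in Th0 and 1.96 in naive.

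Most markers of the cells best known for P-selectin were low in the cultures. The 10 megakaryocyte and platelet markers summed to 10.2 CPM in Th17, 9.47 in Treg, 5.38 in Th0 and 51.9 in naive, and 5 of them (Pf4, Gp1ba, Gp9, Gp6 and Treml1) had 0 counts in Th17. Itga2b, an integrin chain of platelets, made up most of the sum in Th17, with 114 counts. Of the 10 endothelial markers, 7 had 0 counts in Th17, among them Cdh5, Kdr, Tek and Tie1. Egfl7 of that list went the other way, with 52 counts in Th17, 33 in Treg, 31 in Th0 and 4 in naive. The part of platelet and endothelial markers in the level of Selp was not tested. The sum of the 10 endothelial markers was 62.6 CPM in Th17 and 48.1 in Treg, most of it from Pecam1, which T cells also express, with 767 counts in Th17.

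Cd93 (ENSMUSG00000027435, chr2:148436640-148443563, minus strand) had 326 counts in Th17, 174 in naive, 50 in Treg and 1 in Th0. Its levels were 24.8 CPM in Th17 (22.2 to 27.7), 14.2 in naive (12.2 to 16.5), 4.51 in Treg (3.35 to 5.94) and 0.114 in Th0 (0.00290 to 0.638). All 4 libraries were separated in this order, and naive stood closer to Th17 than Treg did. Cd93 was 1.75-fold higher in Th17 than in naive (1.45 to 2.11), which did not meet the 2-fold rule, and the ratio of naive to Th0 was 124 (22.0 to 4931), resting on 1 count in Th0. Beside the naive level, the macrophage and monocyte markers summed to 4706 CPM in naive against 37.6 CPM in Th17, 52.2 in Treg and 32.9 in Th0; their part in the naive level of Cd93 was not tested. In the cultures this sum was lower in Th17 than in Treg, and its part in the Cd93 levels there was not tested either.

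Of Cd93 relatives, Thbd (thrombomodulin), the neighbour 28.5 kb away, had 117 counts in naive, 23 in Th17, 5 in Treg and 3 in Th0. The last 2 values are near the level of 3 counts, so Treg and Th0 are not ordered for Thbd. In Th17 Thbd was 3.89-fold above Treg (1.45 to 13.1), and its log2 ratio of 0.92 fell just short of the 2-fold rule. Clec14a had 0 counts in all libraries and Cd248 at most 1. Of the 10 listed relatives and binding partners, 8 were tested for Th17 over Treg, with 0 higher and 2 lower (median log2 ratio -0.65). The lower genes were Igfbp7, a secreted ligand of CD93, at 0.838 CPM in Th17 and 2.98 in Treg (3.55-fold lower, 1.75 to 7.79), and the complement gene C1qa, at 3 against 20 counts (7.89-fold lower, 2.34 to 41.5). The count of 2 lower genes fell to 0 with 2 CPM added and to 1 with FPKM or with a minimum of 30 counts, and with 0.5 CPM added 1 gene was called higher.

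Lilrb4a and Lilr4b were counted in rows that cannot be told apart with certainty. The row named Lilrb4a (ENSMUSG00000062593, chr10:51480640-51496613, plus strand) overlaps the row named Lilr4b (ENSMUSG00000089672, chr10:51480632-51486316, plus strand). In the GENCODE vM21 annotation the first identifier belongs to Gm49339, a gene that covers both loci, and the second identifier was not matched. There Lilr4b lies at chr10:51480632-51486703 and Lilrb4a at chr10:51490956-51496611, and a transcript of each was 95.4% identical to the other over 3786 aligned nt. Reads of either gene could therefore have been assigned to either row, so the values below describe the locus.

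The row Lilrb4a, whose gene encodes a receptor with inhibitory motifs, had 2010 counts in Th17, 387 in Treg, 157 in Th0 and 626 in naive, or 153, 34.9, 18.0 and 51.1 CPM. The row Lilr4b, whose gene encodes a receptor without those motifs, had 1987, 385, 133 and 419 counts in the same order, or 151, 34.7, 15.2 and 34.2 CPM. Both rows were highest in Th17, clearly read in Treg and naive, and lowest in Th0. Th17 was 8.52-fold above Th0 for Lilrb4a (7.24 to 10.1) and 9.95-fold for Lilr4b (8.34 to 11.9). Against naive, Th17 was 3.00-fold higher for Lilrb4a (2.74 to 3.28) and 4.42-fold higher for Lilr4b (3.98 to 4.93). The ratio of the rows differed between libraries, at 1.49 in naive (1.32 to 1.69) but 1.01 in Th17 (0.95 to 1.08) and 1.01 in Treg (0.871 to 1.16), with Th0 at 1.18 (0.931 to 1.5). Per gene length, in the FPKM deposited by the authors, the pair had the highest Th17 levels of the 9 genes, at 84.2 for Lilrb4a and 64.7 for Lilr4b.

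The promoter window of Lilr4b, the first gene of the locus, is shown with capitals on a TATAAA match and, after it, a STAT match (RefSeq, GRCm38.p6, chr10:51480362-51480611, plus strand).
Lilr4b: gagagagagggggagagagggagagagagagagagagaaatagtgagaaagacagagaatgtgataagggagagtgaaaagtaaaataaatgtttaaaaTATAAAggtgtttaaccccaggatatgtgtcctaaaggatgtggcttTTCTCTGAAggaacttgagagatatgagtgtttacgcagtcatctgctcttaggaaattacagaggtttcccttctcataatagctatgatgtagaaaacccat

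Other receptors of this family had a different order. Pirb, the gene of an inhibitory paired receptor found on myeloid and B cells, was highest in naive at 113 CPM, with 2.97 in Th17, 4.42 in Treg and 0.687 in Th0. Pira2 had 4 counts in Th17, 13 in Treg, 0 in Th0 and 261 in naive. Lilra5 had 77 counts in naive and Lilra6 had 142, and neither had any count in Th0 or Th17. Of 19 listed genes, 12 were in the table and 10 were tested for Th17 over Treg, and 0 were called (median log2 ratio -0.25). The share over all tested genes was 3.15%. Ptpn6, whose product SHP-1 binds inhibitory motifs, was at 164 CPM in Th17 and 259 in Treg. The mast cell genes Tpsb2, Cma1 and Mcpt4 had 0 counts in Th17 and in Treg, and most of the summed mast cell markers of 139 CPM in Th17 and 224 in Treg came from Kit, with 1801 and 2463 counts. Macrophage markers in naive are given above, and their part in the naive level of the pair was not tested.

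Serpinf1 (ENSMUSG00000000753, chr11:75409769-75422701, minus strand) had 589 counts in Th17, 92 in Treg, 33 in Th0 and 16 in naive. Its levels were 44.9 CPM in Th17 (41.3 to 48.7), 8.30 in Treg (6.69 to 10.2), 3.78 in Th0 (2.60 to 5.30) and 1.31 in naive (0.747 to 2.12). The 4 libraries were separated in that order, and every culture was above naive. Th17 was 11.9-fold above Th0 (8.37 to 17.4) and 34.4-fold above naive (21.0 to 60.5), and Treg was 6.35-fold above naive (3.71 to 11.6). Of 10 fibroblast markers, 3 were tested for Th17 over Treg and 2 were called, both higher in Th17 as Serpinf1 was. Among all tested genes 1.91% were called higher. The 2 markers were Lum with 115 against 11 counts (8.84-fold, 4.76 to 18.2) and Pdgfrb with 25 against 2 counts (10.6-fold, 2.63 to 92.0). The list summed to 585 CPM in Th17, 680 in Treg, 221 in Th0 and 412 in naive, most of it from Thy1, which T cells also express. Col1a1, Col1a2, Col3a1 and Dcn had at most 8 counts in any culture, and the part of fibroblast markers in the level of Serpinf1 was not tested. Of its listed receptors, Pnpla2, Plxdc1, Plxdc2 and Lrp6, all 4 were tested for Th17 over Treg and 0 were called, and Lrp6 and Pnpla2 had 115 and 82.2 CPM in Th17.

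Serpinb5 (ENSMUSG00000067006, chr1:106861173-106883348, plus strand) had 365 counts in Th0, 174 in Th17, 5 in Treg and 0 in naive. Its levels were 41.8 CPM in Th0 (37.6 to 46.3), 13.3 in Th17 (11.4 to 15.4) and 0.451 in Treg (0.146 to 1.05). Serpinb5 was thus highest in Th0, intermediate in Th17 and at the floor in naive. Its level in Th17 was 3.15-fold below that in Th0 (2.62 to 3.80), and Treg lay 92.7-fold below Th0 (39.3 to 287). Against naive it was at least 171-fold higher in Th0 and at least 54.1-fold higher in Th17. Among epithelial markers, Krt5 and Krt14 had 0 counts in all 4 libraries, while Epcam had 185 counts in Th0 and 51 in Th17. Sfn went the other way, with 59 counts in Th0, 218 in Th17, 159 in Treg and 540 in naive. Krt18 also did so, with 8 counts in Th0 and 29 in Th17. The sum of the 10 markers was 29.6 CPM in Th0, 24.2 in Th17, 20.7 in Treg and 56.6 in naive. Its part in the level of Serpinb5 was not tested.

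The promoter windows of the serpin pair are shown to set the gene highest in Th17 beside the gene highest in Th0. In Serpinf1, capitals mark AGGTCA, only a part of a ROR element, on the opposite strand and the hypoxia core (RefSeq, GRCm38.p6, chr11:75422624-75422873, minus strand). In Serpinb5, they mark the hypoxia core, an AP-1 match and an E-box (chr1:106860925-106861174, plus strand).
Serpinf1: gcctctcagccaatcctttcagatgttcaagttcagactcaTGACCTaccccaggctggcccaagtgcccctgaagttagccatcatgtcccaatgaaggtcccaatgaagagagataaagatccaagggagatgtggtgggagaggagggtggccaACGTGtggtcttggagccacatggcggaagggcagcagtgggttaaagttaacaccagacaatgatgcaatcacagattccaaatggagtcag
Serpinb5: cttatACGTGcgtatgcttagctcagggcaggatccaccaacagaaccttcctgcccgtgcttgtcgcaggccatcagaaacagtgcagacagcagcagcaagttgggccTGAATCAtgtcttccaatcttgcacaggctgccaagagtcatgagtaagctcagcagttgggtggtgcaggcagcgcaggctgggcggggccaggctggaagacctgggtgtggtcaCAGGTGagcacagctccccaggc

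Of 36 other listed serpin symbols, on 37 rows because Serpinb10 has 2 identifiers, 10 rows were tested for Th17 over Treg. Of these, 2 were higher, Serpinb1a among them, Serpine2 was lower and 7 were not called. The median log2 ratio of the list was -0.61. Serpinb1a, an inhibitor of neutrophil proteases, had 61.9 CPM in Th17, 28.0 in Treg, 1.83 in Th0 and 21.7 in naive (2.21-fold for Th17 over Treg, 1.94 to 2.53). Serpine2, an inhibitor of thrombin and plasminogen activators, had 12.0 CPM in Th17, 29.8 in Treg, 69.4 in Th0 and 2.37 in naive (2.48-fold lower, 2.05 to 3.02), and with FPKM the list had 0 lower genes. Serpinb12, the nearest protein-coding neighbour of Serpinb5 on 1 side, and Serpinb13 had 0 counts in all libraries, and Serpinf2, 9.03 kb from Serpinf1, had 16 counts in naive and 0 in the cultures.

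**Figure D2:**
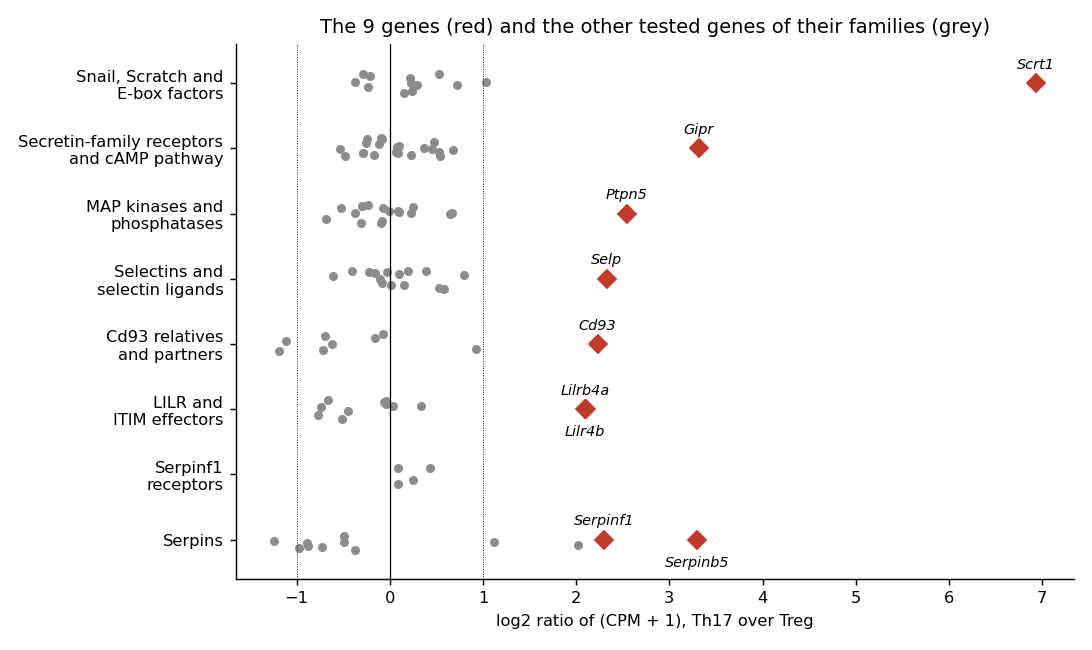
The log2 ratio of CPM + 1 for Th17 over Treg of the 9 genes (red diamonds) and of the other tested genes of the 8 lists fixed for their families and pathways (grey points, spread vertically for visibility); dotted lines mark 2-fold. The grey points lie mostly between the dotted lines, and the red diamonds lie to the right of them. The red values were the ground for choosing the genes.

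Over the 8 lists, 97 relatives and partners were tested for Th17 over Treg; 3 were higher and 3 lower (6.19% called), where 3.15% of all tested genes were called in either direction. Id2 and Serpinb1a were among the higher genes, and Serpine2, Igfbp7 and C1qa were the lower ones. The comparison that used neither of the libraries behind the choice, Th0 over naive, gave no common direction among the 9 genes. Gipr, Serpinf1 and Serpinb5 were higher in Th0, Cd93, Lilrb4a and Lilr4b were lower, and Scrt1, Ptpn5 and Selp were not called. Their median log2 ratio was 0.17, against -0.13 over all genes. Of all genes tested there 45.7% were called, 18.5% as higher and 27.2% as lower, and against those shares 3 and 3 of 9 is no result about these genes. In this comparison Serpinf1 was 2.89-fold higher (1.55 to 5.62), Gipr at least 4.67-fold higher on 10 against 0 counts, Lilrb4a 2.84-fold lower (2.38 to 3.41) and Lilr4b 2.25-fold lower (1.84 to 2.75). The calls of Gipr and Serpinf1 were lost with library totals, with FPKM and with 2 CPM added, and Serpinb5 was then the 1 gene called higher. Serpinf1 was also not called with upper quartile scaling, and Gipr was not tested with a minimum of 30 counts.

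The other comparisons each share 1 library with the contrast that chose the genes. In Th17 over Th0, 8 of 9 genes were higher and Serpinb5 was lower, where 20.1% of tested genes were higher and 12.4% lower (32.5% in all). In Treg over Th0, Gipr, Cd93 and Lilr4b were higher, Serpinb5 was lower and 5 met neither rule, where 20.2% were higher and 12.0% lower (32.2% in all); with library totals or upper quartile scaling, 5 were higher, with Lilrb4a and Serpinf1 added. In Th17 over naive, 8 were higher and Cd93 met neither rule, where 15.5% were higher and 17.7% lower (33.1% in all). In Treg over naive, 7 of 9 genes could be tested; Gipr and Serpinf1 were higher and Cd93 was lower, where 14.9% were higher and 16.9% lower (31.8% in all). Treg therefore met the rule against both Th0 and naive for Gipr and Cd93, and against neither for Ptpn5, Selp and Lilrb4a. Both calls of Cd93 in Treg were lost with FPKM.

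**Figure D3:**
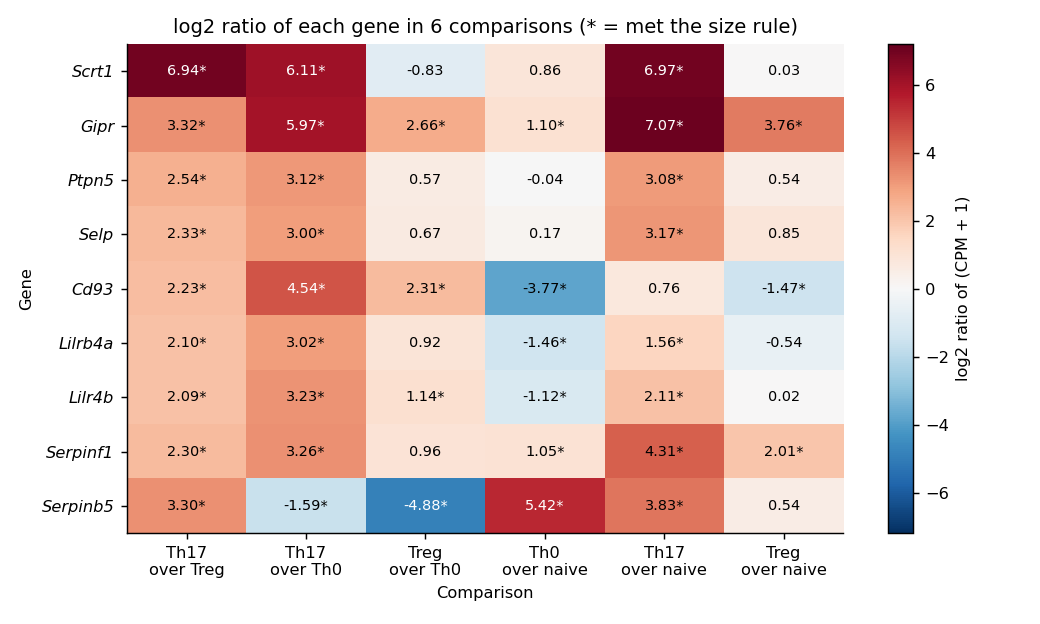
The log2 ratio of CPM + 1 for each of the 9 genes in 6 comparisons, with the value in each cell; asterisks mark values that met the size rule. Comparisons share libraries and the first column was the ground for choosing the genes. Serpinb5 is the only gene with a negative value for Th17 over Th0 (-1.59), and the column for Th0 over naive holds both signs.

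**Figure D4:**
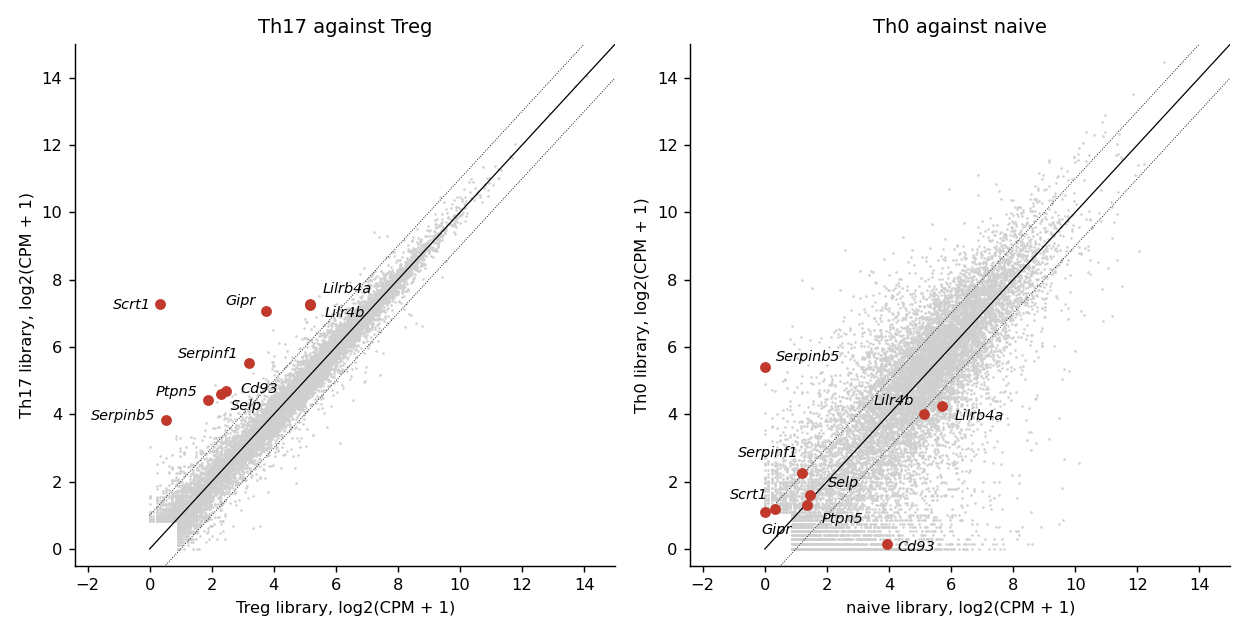
Levels as log2 of CPM + 1 for every tested gene (grey), Th17 against Treg on the left and Th0 against naive on the right, with the 9 genes in red; the solid line marks equal levels and dotted lines mark 2-fold. On the left the red points lie above the grey band because they were chosen so, and on the right they lie on both sides of the line.

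As a description of likeness, the genes with the closest pattern over the 4 libraries were found among 10740 genes with at least 5 CPM in 1 library, by the distance between gene-centred log2 values of CPM + 1. For Gipr these were Il17a (distance 1.16) and Egln3, an oxygen-sensing prolyl hydroxylase gene (1.21), which had 624 CPM in Th17 and 198 in Treg. For Serpinf1 they were Ero1l, an oxidase of the endoplasmic reticulum (0.24), and Tnfrsf8, which encodes CD30 (0.30). For Ptpn5 they were Smtnl2 (0.36) and the fibroblast marker Lum, which encodes the proteoglycan lumican (0.36), and for Selp Lum (0.25) and the myosin gene Myh7b (0.40). Lum had 115 counts in Th17, 11 in Treg and 0 in Th0 and naive. For Cd93 they were the transglutaminase gene Tgm1 (0.83) and Ppp1r3e (1.03), for Lilrb4a Ankrd37 (0.44), and for Lilr4b Gdpd2 (0.35) and Ankrd37 (0.39). For Serpinb5 they were the metallothionein genes Mt1 (1.81) and Mt2 (2.03), both also highest in Th0. Neither was a close match between Th17 and Treg. Mt1 had 26.6 CPM in Th17 and 12.2 in Treg, and Mt2 had 12.8 and 7.48, where Serpinb5 had 13.3 and 0.451. Scrt1 had no close match either: the nearest were Il22 (2.96), a Th17 cytokine gene with 28.3 CPM in Th17 and 3.34 in Treg, and Pcdhga1 (3.41).

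Apart from the Lilr4b and Lilrb4a pair, the 9 genes lie at separate loci. Of 16 nearest protein-coding neighbours that were not among the 9 genes, 9 could be tested for Th17 over Treg and 0 were called, with log2 ratios between -0.26 and 0.92. Over all tested genes 3.15% were called, so 0 of 9 is no result about these neighbours. Dgat1, 4.25 kb from Scrt1, had 264 CPM in Th17 and 153 in Treg, and Snrpd2 and Eml2 beside Gipr had log2 ratios of -0.05 and -0.12. F5, 1.81 kb from Selp, had 179 counts in naive and at most 4 in the cultures. In the table's GO annotation, 6 of the 9 genes carried the term integral component of membrane, held by 31.9% of 20678 annotated genes. A group of 4, Gipr, Selp, Cd93 and Serpinf1, carried response to wounding, held by 3.20% of them; 84 terms held by 3 or more of the genes were looked through, and no test was made.

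**Figure D5:**
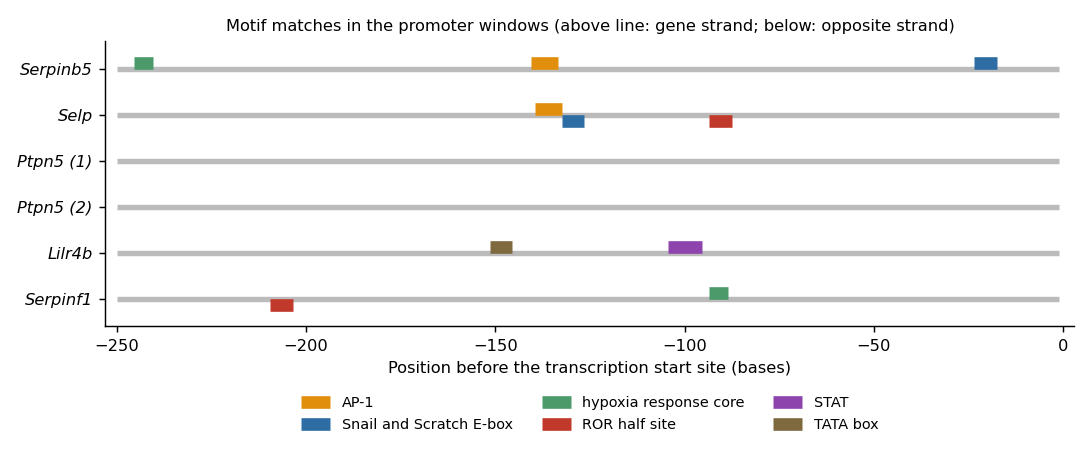
Matches to the searched motifs in the 250 bases before the RefSeq start sites of 5 of the 9 genes; the axis is the distance from the start site in bases. Blocks above a line are matches on the gene's strand and blocks below on the opposite strand. The 2 windows of Ptpn5 hold no match, and Selp holds an AP-1 and an E-box match next to each other.

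RefSeq promoter windows of GRCm38.p6 were matched by symbol for 5 of the 9 genes, as 6 windows because Ptpn5 has 2; Scrt1, Gipr, Cd93 and Lilrb4a were not matched. In all, 7 motifs were searched on both strands, and the share of 32851 windows of this length that hold each is given. The motif AGGTCA, which is only a part of a ROR element, was found in Selp and Serpinf1 (14.0% of all windows). A full ROR element was not searched for. The E-box of Snail and Scratch factors, CAGGTG, was found in Selp and Serpinb5 (17.2%), and so was the AP-1 motif, TGANTCA (6.75%). The hypoxia response core ACGTG was found in Serpinf1 and Serpinb5 (16.6%). Lilr4b held the STAT motif TTCNNNGAA (7.02%) and the TATA box, searched as TATAAA (12.4%). The cyclic AMP response element, searched as TGACGTCA, was in none of the 6 windows (1.55%). No match of 1 motif overlapped a match of another. In Selp the AP-1 match at -139 to -133 abuts the E-box at -132 to -127. These matches describe letters in the windows and do not show that a factor binds there.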

How the data were processed

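RNA sequencing of 4 mouse CD4+ T cell libraries was used. Per the labels' protocols, total RNA was isolated with TRIzol and read on a HiSeq instrument. Bowtie2 and RSEM, and the builds GRCm38.p6 and mm10, are named in the submitters' processing notes with no role stated. Whether the counting used strand, and on which annotation, is not given in the sources used, so reads of a gene and its antisense partner may not be separated. Counts per gene were deposited as whole numbers without normalization. The authors also deposited FPKM, which depend on gene length and library total.

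Libraries were grouped by the labelled cell type. Counts were scaled with TMM factors (edgeR 4.0.16, R 4.3.3) computed on genes with at least 10 counts in 1 library, and the scaled CPM was used for levels. Ratio intervals are exact conditional (Clopper-Pearson) and level intervals exact Poisson; no molecular identifiers are named, so both cover counting error only. Folds were computed without the added 1 CPM, and against 3 counts where a count was 0. The added 1 CPM understates the log2 ratio of low genes. In the FPKM alternative 1 FPKM was added in its place. That understates ratios further where FPKM are below CPM, as for Cd93 in Treg (0.730 FPKM against 4.51 CPM). DESeq2 1.42.0 size factors served as an alternative scaling. Sequence identity was taken from GENCODE vM21 transcripts, and promoters from RefSeq. The members and gene lists were chosen with earlier results of these data known. Beside the 9 genes, the text names list members called in Th17 over Treg or highest in level, lineage genes, the 2 most alike genes and the nearest neighbours; further list members and markers were named after their values were seen. A few genes under that rule are not reported here.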

Additional observations from a re-analysis of the deposited data

How the results depend on the processing

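No paired analysis was possible because each group has 1 library, and for the same reason no library could be left out. Under 9 alternatives the 81 values of the 9 genes for Th17 over Treg all stayed called as higher. This contrast chose the genes, so that outcome was largely set by the choice. No call changed for Th17 over Th0 or Th17 over naive, which share the Th17 library with it. Across the 6 comparisons 0 called values changed sign. The count of genes higher in Th0 than naive was 3, and 1 with library totals, with the authors' FPKM and with a pseudocount of 2 CPM. The count higher in Treg than Th0 was 3, and 5 with upper quartile scaling or library totals; the count lower there was 1, and 2 with a pseudocount of 0.5 CPM. The count lower in Treg than naive was 1, and 0 with the authors' FPKM. The cause was not tested. With Lilrb4a and Lilr4b summed to 1 value, an alternative chosen after seeing the data, 8 of 8 values were higher in Th17 than Treg. That too was largely set by the choice of the genes. Library totals moved the median log2 ratio of all genes by 0.28 for Th17 over Th0, 0.31 for Treg over Th0 and -0.24 for Th0 over naive. The share of calls that were higher thereby went from 61.9% to 79.3%, from 62.7% to 81.8% and from 40.5% to 29.6%. For Th17 over Treg, the whole table gave 255 higher and 165 lower calls, 112 and 88 with FPKM, and 286 lower with 0.5 CPM and 109 lower with 2 CPM added. Lower calls for Th17 over Th0 went from 1649 to 922 with totals and 681 with FPKM, those for Treg over Th0 from 1575 to 810 and 597, and higher calls for Th0 over naive from 2590 to 1456 with FPKM. Of 288 counts of the gene lists, 15 moved by more than 1.5 times. Genes with 3 or fewer counts in a library (Scrt1 in naive and Treg, Cd93 in Th0, Gipr and Serpinb5 in naive) are limited by depth, and their folds have wide intervals or are bounds.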
